A study of Mus musculus with 6 samples.

Results

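The genes of serine synthesis and one-carbon metabolism described here are Phgdh, Psat1, Psph, Shmt1, Shmt2, Mthfd1, Mthfd2, Mthfd1l and Aldh1l2. They were taken by gene symbol, 9 genes of the 55450 in each library's count table. Of the 9, 8 are in the table for the whole series, which holds 17500 genes, and the same 8 passed the filter on low counts. The bulk RNA-seq libraries come from wild-type male C57/Bl6 mice aged 22 to 24 months. Long-term hematopoietic stem cells (LT-HSCs) were sorted as Lin-, Sca1+, cKit+, CD48- and CD150+. The 10% with the most surface CD61, integrin beta 3, formed the CD61High group, and the 10% with the least formed CD61Low, each as 5000 cells. Mice 1, 2 and 3 gave 1 library of each group. The protocol also speaks of pools of LT-HSCs, so it is taken from the titles alone that each number is 1 animal. RNA was amplified to full-length cDNA (SMART-Seq v4) and tagmented (Nextera XT). The comparison asks which transcripts differ between the CD61 extremes of the old stem cell pool.

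Serine is made from a glycolytic intermediate in a short chain of enzymes. PHGDH oxidises it, PSAT1 transfers an amino group from glutamate, and PSPH removes the phosphate. Serine hydroxymethyltransferases then move a carbon from serine onto tetrahydrofolate and leave glycine. SHMT1 does this in the cytosol and SHMT2 in mitochondria. In mitochondria MTHFD2 and MTHFD1L turn the folate-bound carbon into formate, and in the cytosol the trifunctional MTHFD1 takes formate up again for the synthesis of purines and thymidylate. ALDH1L2 oxidises formyl groups in mitochondria. The pathway is known for its high activity in proliferating cells, and several of its genes are known targets of the stress-responsive transcription factor ATF4.

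Between 21354130 and 26398090 counts fell on genes in a library. Levels are given as CPM, counts scaled to the library size after TMM adjustment. Itgb3, which encodes CD61, averaged 190.9 ± 45.4 CPM in the CD61High libraries and 253 ± 110 CPM in the CD61Low libraries (SD, n = 3). The gate was set on surface protein, and this transcript was not called (edgeR log2 fold change -0.41, SE 0.39, adjusted p = 0.926). All 12 LT-HSC markers listed, among them Procr, Kit and Mecom, had counts in every library, and together they took 0.142% to 0.656% of counts. The sort was set to exclude mature cells, yet all 20 listed neutrophil markers (Camp, Ltf and others) had counts in every library. Their summed share was highest in both libraries of mouse 2, at 8.34% and 13.4%, and at most 2.55% elsewhere. Of the B lineage and the T and NK cell markers, Pax5, Igll1, Cd3g, Cd8a, Gzma and Ncr1 were at 0 in at least 1 library. The other markers of these lists had counts in every library. Summed, the B lineage markers took 0.00595% to 0.619% of counts, and the T and NK cell markers 0.00896% to 0.0293%. Cd48, a marker the cells were sorted against, ranged from 1.07 to 129.8 CPM. In bulk samples, fewer cells of a type and less RNA per cell cannot be told apart.

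The members stood higher in CD61High than in CD61Low, with Mthfd2 and Aldh1l2 as exceptions. Of the 8 members tested, 7 (Phgdh, Psat1, Psph, Shmt1, Shmt2, Mthfd1 and Mthfd1l) were higher in CD61High in 3 of 3 mice, as were 20.6% of all genes tested. None was lower in all 3, as 24.7% of all genes were. For the same 7, the lowest CD61High library lay above the highest CD61Low library, as for 8.62% of all genes tested. The log2 fold changes of the 7 ran from 0.57 to 1.09, that is 1.49-fold to 2.12-fold. The median over the 8 tested was 0.61, against -0.05 over all 15610 genes. The members together took 1019, 879 and 1152 CPM in CD61High of mice 1, 2 and 3, and 610, 640 and 653 CPM in CD61Low.

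No member passed the test over all genes. Without a block edgeR called 0 of the 8, as it called 0% of all genes tested, and with the mouse as a block it again called 0, against 0.256% of all genes. At an unadjusted p under 0.05, 6 of the 8 were higher in CD61High without the block, against 3.56% of all genes tested. With the block 7 were, against 8.01%. The other tools differed: DESeq2 called 3 members as higher without the block (0.803% of genes) and 6 with it (2.79%), and limma voom with the block called 2 (0.500%). Without both libraries of mouse 2, where neutrophil markers took most, edgeR called 1 without the block (0.450%) and 3 with it (1.85%), and the median of the 8 was 0.78 in both fits. Every call named here was toward CD61High.

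**Figure D1:**
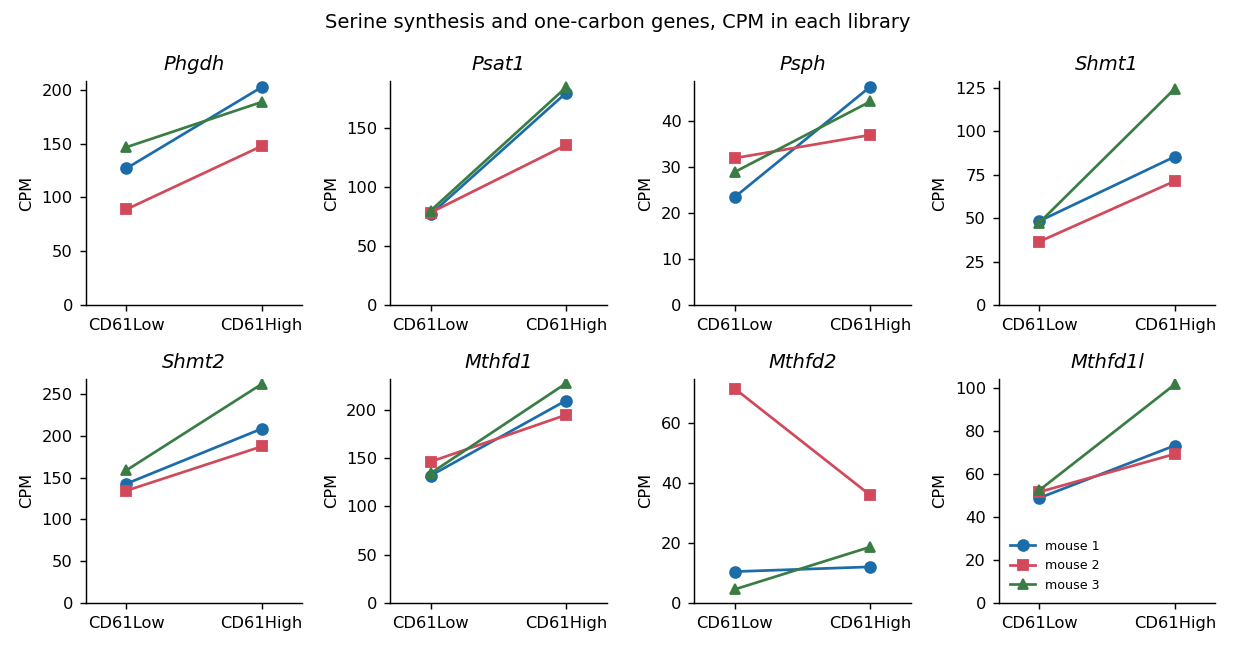
CPM (TMM-adjusted) of the 8 members tested, in each library; every line joins the CD61Low and CD61High libraries of 1 mouse. All lines slope upward to CD61High except that of mouse 2 for Mthfd2, which runs from 71.6 to 36.0 CPM.

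RefSeq promoter windows, 250 bases before to 50 after a transcription start on GRCm38.p6, were matched by symbol for 8 of the 9 members (not Aldh1l2), in 9 windows since Psat1 has 2 starts. Both strands were searched for TGATGNAA, the core of the element bound by ATF4 with a C/EBP partner, for the E-box CACGTG and for CCAAT. Only CCAAT matched in these windows, so that matches of different motifs do not overlap. TGATGNAA and CACGTG had no match in the 9 windows, and were found in 3.97% and 7.15% of all 32851 windows. CCAAT, or ATTGG on the other strand, was in 6 of the 9 windows, those of 6 genes, and in 37.4% of all windows. Windows of 3 genes are shown: Psat1 and Shmt1, which had the largest differences between the groups, and Mthfd2, whose mice went different ways. For Psat1 only the window with CCAAT is shown, and the window of its other start (chr19:15924573-15924872) had no match. Capitals mark CCAAT or ATTGG, and all 3 genes lie on the minus strand, written 5′ to 3′ along the gene.
Psat1, chr19:15925010-15925309: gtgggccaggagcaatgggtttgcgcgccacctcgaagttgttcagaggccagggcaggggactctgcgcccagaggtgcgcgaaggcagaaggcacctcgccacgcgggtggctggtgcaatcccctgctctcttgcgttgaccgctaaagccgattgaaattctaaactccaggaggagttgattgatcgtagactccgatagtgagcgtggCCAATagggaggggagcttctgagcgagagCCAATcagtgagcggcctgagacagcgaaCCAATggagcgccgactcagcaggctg
Shmt1, chr11:60811216-60811515: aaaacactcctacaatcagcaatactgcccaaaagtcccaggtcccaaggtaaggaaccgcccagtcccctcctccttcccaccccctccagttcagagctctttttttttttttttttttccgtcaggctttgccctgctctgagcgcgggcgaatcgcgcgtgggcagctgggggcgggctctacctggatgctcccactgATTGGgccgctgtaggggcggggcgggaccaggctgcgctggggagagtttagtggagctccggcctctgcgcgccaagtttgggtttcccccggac
Mthfd2, chr6:83317555-83317854: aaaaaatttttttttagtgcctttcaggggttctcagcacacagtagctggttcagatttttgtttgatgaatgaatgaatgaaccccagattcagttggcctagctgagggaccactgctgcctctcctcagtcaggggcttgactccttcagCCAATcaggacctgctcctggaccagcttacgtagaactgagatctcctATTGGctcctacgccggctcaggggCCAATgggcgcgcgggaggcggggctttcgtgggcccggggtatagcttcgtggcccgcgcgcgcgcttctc
The first bases of the matches lie at -36, -6 and 24 from the start for Psat1, at -47 for Shmt1, and at -96, -47 and -22 for Mthfd2. A match is a description of letters, and binding was not measured.

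Psat1 (ENSMUSG00000024640.9, GRCm38 chromosome 19, 15904678 to 15947337), which encodes phosphoserine aminotransferase, had the lowest p among the members. It was at 180, 136 and 184.5 CPM in CD61High of mice 1, 2 and 3, and at 77.0, 78.4 and 80.02 CPM in CD61Low. The CD61Low libraries lay almost on top of each other, with a coefficient of variation of 1.93%, where counting error alone gives 2.27%. The CD61High libraries spread more (16.2%), with mouse 2 lowest, and none came near CD61Low. The log2 fold change was 1.09 (SE 0.16) with an adjusted p of 0.652 in edgeR without the block, where its unadjusted p ranked 9 among the 15610 genes. With the block it was 1.07 (SE 0.15, edgeR adjusted p = 0.0512), just outside the threshold. It was inside it with the block and relative log expression factors (edgeR adjusted p = 0.0497), and without mouse 2 with the block (log2 1.199, edgeR adjusted p = 0.0190) or without it (edgeR adjusted p = 0.0483).

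Phgdh and Psph, the steps before and after PSAT1, were higher by less. Phgdh (ENSMUSG00000053398.11, chromosome 3, 98313170 to 98339990) had 202, 147.7 and 189 CPM in CD61High of mice 1, 2 and 3 and 127, 88.9 and 146.6 CPM in CD61Low. Each mouse was higher in CD61High, but the groups are separated by a narrow gap, between CD61High of mouse 2 and CD61Low of mouse 3. Its log2 fold change was 0.57 (SE 0.24, edgeR adjusted p = 0.752), and 0.59 (SE 0.14, edgeR adjusted p = 0.0905) with the block. Psph (ENSMUSG00000029446.14, chromosome 5, 129765558 to 129787449) had 47.6, 37.1 and 44.4 CPM in CD61High and 23.6, 32.02 and 29.0 CPM in CD61Low. The gap was widest in mouse 1 and small in mouse 2, with log2 differences of 1.01 and 0.21. Over the mice the log2 fold change was 0.61 (SE 0.19, edgeR adjusted p = 0.676). Psph shares 10.4% of its exon sequence with Cct6a on the other strand, and reads there cannot be assigned without strand. Per length, the ratio of Psat1 to Phgdh was 0.519, 0.537 and 0.572 in CD61High and 0.355, 0.515 and 0.319 in CD61Low. The groups did not overlap in this ratio, though CD61Low of mouse 2 came close, and the difference was not tested.

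The serine hydroxymethyltransferases were both higher in CD61High, the cytosolic Shmt1 by more. Shmt1 (ENSMUSG00000020534.14, chromosome 11, 60788104 to 60811718) had 85.5, 71.4 and 124.6 CPM in CD61High of mice 1, 2 and 3, against 48.4, 36.6 and 47.5 CPM in CD61Low. Mouse 3 had the largest difference, at log2 1.39, and mouse 1 the smallest, at 0.82. The log2 fold change was 1.09 (SE 0.25, edgeR adjusted p = 0.652), and 1.06 (SE 0.16, edgeR adjusted p = 0.0552) with the block. Without mouse 2 the block gave 1.09 with an edgeR adjusted p of 0.0424. The mitochondrial Shmt2 (ENSMUSG00000025403.5, chromosome 10, 127517123 to 127522444) had 208.5, 187 and 262 CPM in CD61High and 143, 134 and 159 CPM in CD61Low. All 3 CD61High libraries stood above all 3 CD61Low ones. Its log2 fold change was 0.59 (SE 0.18, edgeR adjusted p = 0.676), and 0.58 (SE 0.13, edgeR adjusted p = 0.0808) with the block.

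Per length, there was more Shmt2 than Shmt1 in each of the 6 libraries. The ratio was 3.05, 3.27 and 2.63 in CD61High of mice 1, 2 and 3, and 3.68, 4.58 and 4.17 in CD61Low. It was lower in CD61High in 3 of 3 mice, at 2.98 ± 0.33 against 4.15 ± 0.45 (SD, n = 3), with no overlap. The difference in ratio was not tested, and no share over all genes stands beside it. Of the other ratios between genes that were computed, only Psat1 to Phgdh did not overlap between the groups.

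Mthfd1 and Mthfd1l, at the cytosolic and mitochondrial ends of the formate route, were both higher in CD61High in each mouse. Mthfd1 (ENSMUSG00000021048.7, chromosome 12, 76255298 to 76319803) had 209.6, 195 and 227 CPM in CD61High of mice 1, 2 and 3 and 132, 146 and 134 CPM in CD61Low. Its coefficient of variation was 7.78% and 5.62% within the groups, and the groups were well apart. The log2 fold change was 0.62 (SE 0.13, edgeR adjusted p = 0.652), 0.61 with the block (SE 0.13, edgeR adjusted p = 0.0808) and 0.70 with the block without mouse 2 (edgeR adjusted p = 0.0391). Mthfd1l (ENSMUSG00000040675.17, chromosome 10, 3973118 to 4167081), which encodes the mitochondrial formate-releasing enzyme, had 73.3, 69.4 and 101.8 CPM in CD61High and 48.9, 51.7 and 52.5 CPM in CD61Low. Mouse 3 stood apart from the other CD61High libraries, while CD61Low varied little. Its log2 fold change was 0.68 (SE 0.19, edgeR adjusted p = 0.661), and 0.66 (SE 0.15, edgeR adjusted p = 0.0929) with the block. Per length, Mthfd1l stood to Mthfd1 at 0.385 ± 0.055 in CD61High and 0.373 ± 0.019 in CD61Low (SD, n = 3), with overlap.

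**Figure D2:**
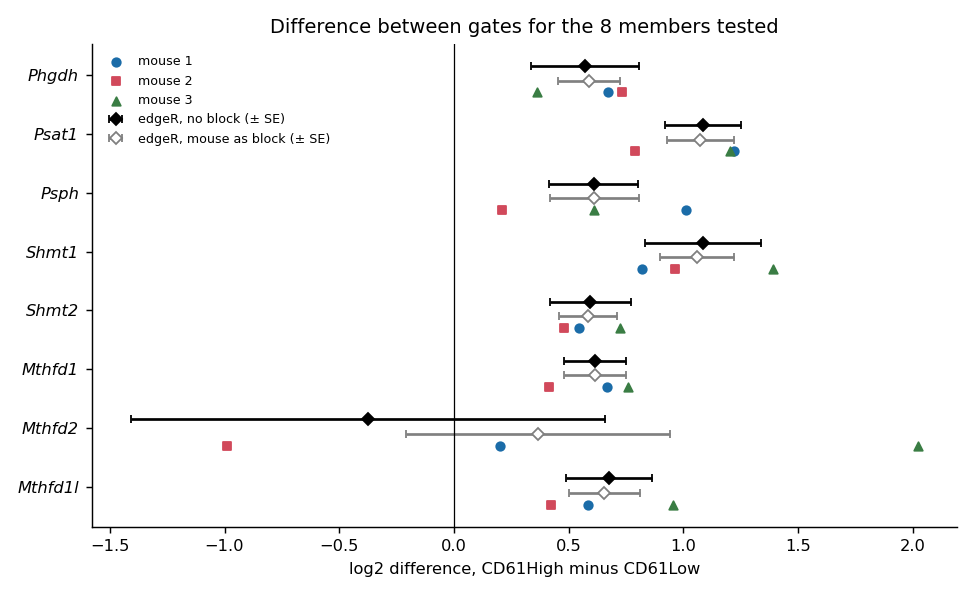
Log2 difference between CD61High and CD61Low for the 8 members tested; diamonds are edgeR estimates without (black) and with (open) the mouse as a block, bars are ± SE, and coloured points are the 3 mice. Psat1 and Shmt1 lie near 1.09, 5 other genes lie between 0.57 and 0.68, and the mice spread from -0.99 to 2.02 for Mthfd2.

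Mthfd2, the mitochondrial dehydrogenase and cyclohydrolase, had a pattern of its own. It stood at 12.05, 36.0 and 18.7 CPM in CD61High of mice 1, 2 and 3 and at 10.5, 71.6 and 4.54 CPM in CD61Low. Both libraries of mouse 2 were above the other 4, and its CD61Low library was the highest of all. CD61High was lower in mouse 2 (log2 difference -0.99) and higher in mice 1 and 3 (0.20 and 2.02). The log2 fold change of Mthfd2 (ENSMUSG00000005667.8, chromosome 6, 83305691 to 83325908) was -0.37 (SE 1.03, edgeR adjusted p = 0.951). It turned to 0.37 (SE 0.58, edgeR adjusted p = 0.762) with the block and to 1.57 (edgeR adjusted p = 0.312) without CD61Low of mouse 2. No direction can be given for this gene.

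The remaining mitochondrial member, Aldh1l2 (ENSMUSG00000020256.14, chromosome 10, 83487450 to 83534140), was almost absent from the counts. Mouse 2 gave 5 counts in its CD61High library and 13 in its CD61Low library. The other 4 libraries had 0, where 3 counts, the upper 95% confidence limit for a count of 0, equal 0.109 to 0.129 CPM. This floor covers counting error only. Its cytosolic relative Aldh1l1, chosen after its values were seen, had 72.2, 46.9 and 55.7 CPM in CD61High of mice 1, 2 and 3 and 72.8, 23.1 and 76.9 CPM in CD61Low. Mthfd2l, a close relative of Mthfd2 and also chosen after its values were seen, was at 16.1 ± 4.65 CPM in CD61High and 13.1 ± 6.22 CPM in CD61Low (SD, n = 3). In contrast to Mthfd2, it was lowest in both libraries of mouse 2, at 10.8 and 5.99 CPM.

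Shares of markers of other cells and of division are given beside Mthfd2. They are shares of raw counts, without the TMM adjustment of CPM. The TMM factors were 0.926 for CD61High and 0.767 for CD61Low of mouse 2, so the 2 scales differ there. The 22 replication and mitosis genes took 0.462%, 0.593% and 0.544% of counts in CD61High of mice 1, 2 and 3, and 0.199%, 0.512% and 0.146% in CD61Low. The library order of Mthfd2 had CD61Low of mouse 3 and of mouse 1 at the bottom, as this share did. In CD61High of mice 1, 2 and 3 the 20 neutrophil markers summed to 0.676%, 8.34% and 0.0748%, and in CD61Low to 2.55%, 13.4% and 0.248%. The 14 erythroid markers summed to 0.430%, 1.83% and 0.330% against 0.564%, 3.13% and 0.315%. Both sums were highest in the libraries of mouse 2, where Mthfd2 and Aldh1l2 were highest. Their part in these 2 genes was not tested.

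**Figure D3:**
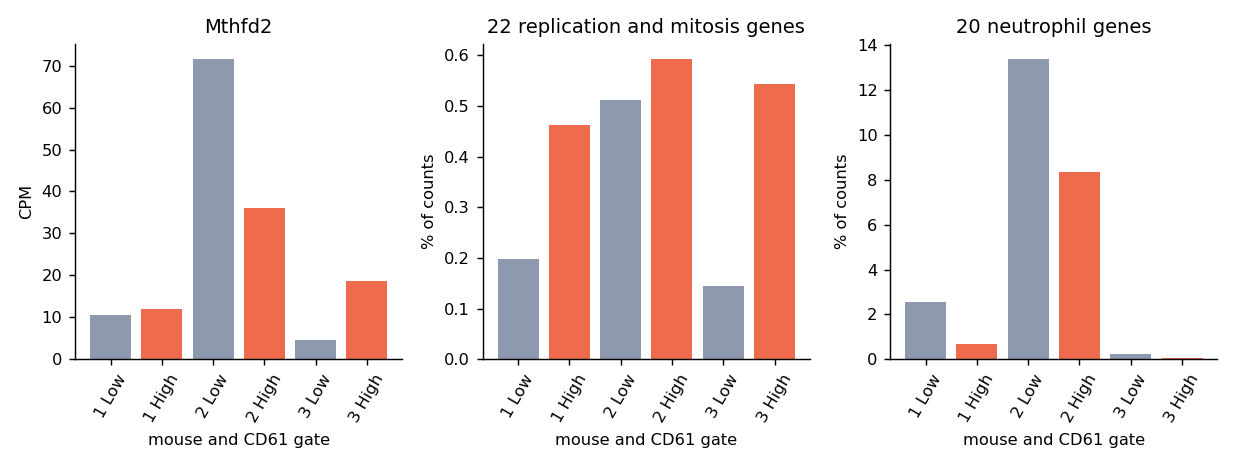
Mthfd2 in CPM (left), the summed share of counts of 22 replication and mitosis genes (middle) and of 20 neutrophil genes (right), as bars for the 6 libraries. Mthfd2 and the neutrophil share are both highest in CD61Low of mouse 2, at 71.6 CPM and 13.4%. The replication share of raw counts is highest in CD61High of mouse 2, at 0.593%. Shares are not TMM-adjusted, whereas CPM are, so the scales of the panels differ.

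The same marker shares stand beside the 7 members that were higher in CD61High in each mouse. Neutrophil, monocyte, B lineage and T and NK cell shares of raw counts were lower in CD61High in each mouse. The replication and mitosis share of raw counts was higher in each. On the TMM-adjusted scale of the members this did not hold for mouse 2, where the median log2 difference of the 22 genes was -0.18. The erythroid share of raw counts was lower in CD61High of mice 1 and 2 and higher in mouse 3. In TMM-adjusted CPM, 12 of the 14 erythroid genes were lower in CD61High in each mouse, as were 24.7% of all genes tested. Their median log2 difference in mouse 3 was -0.70. The 10 megakaryocyte and platelet genes took 0.338%, 0.168% and 0.343% in CD61High of mice 1, 2 and 3 and 0.291%, 0.0800% and 0.349% in CD61Low. In TMM-adjusted CPM, 7 of the 10 were higher in CD61High in each mouse, as were 20.6% of all genes tested. The part of these shares in the members' differences was not tested. In mouse 2 the replication share of raw counts differed least, at 0.593% against 0.512%, and the neutrophil shares were highest, at 8.34% and 13.4%. The differences of the 7 members there, in TMM-adjusted log2 CPM, were 0.21 (Psph) to 0.96 (Shmt1). In mouse 3 they were 0.36 (Phgdh) to 1.39 (Shmt1). There the neutrophil shares were lowest, at 0.0748% and 0.248%, and the replication share differed most, at 0.544% against 0.146%.

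Compared per kilobase of exon, the means of the first 4 members kept their order in both groups. In CD61High, Phgdh (72.2 ± 11.4 CPM per kb, SD, n = 3) and Shmt2 (70.5 ± 12.4) were at the top and their libraries overlapped. Mthfd1 (47.4 ± 3.69) and Psat1 (39.2 ± 6.35) followed without overlap between them. Shmt1 (24.2 ± 7.09) overlapped with Psat1 above it and with Mthfd1l (18.4 ± 3.99) below it, and Psph (9.93 ± 1.24) overlapped with Mthfd2 (6.38 ± 3.54). In CD61Low the first 4 were at 48.6 ± 11.8, 46.7 ± 3.98, 30.9 ± 1.74 and 18.4 ± 0.355 CPM per kb. Phgdh and Shmt2 overlapped in CD61Low too. There Mthfd1l (11.5 ± 0.428) and Shmt1 (11.4 ± 1.69) overlapped, as did Shmt1 and Mthfd2, and Mthfd2 (8.28 ± 10.6) and Psph (6.51 ± 0.990). Levels between genes rest on the union of annotated exons, so that a gene whose long isoforms are little used is set too low.

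**Figure D4:**
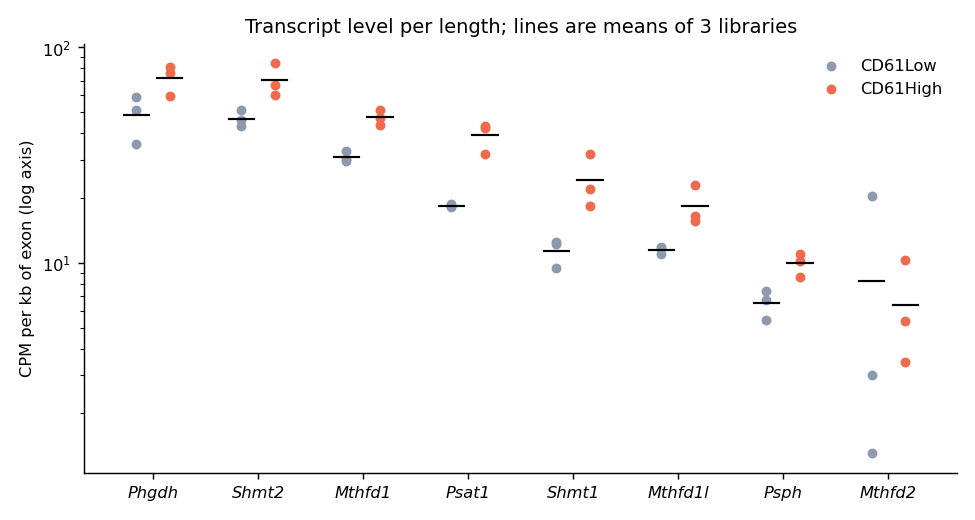
Transcript level in CPM per kilobase of annotated exon, on a log axis, for the 8 members tested; points are the 3 libraries of each group and lines their means. Phgdh and Shmt2 lead at 72.2 and 70.5 in CD61High, and the CD61Low libraries of Mthfd2 spread from 1.303 to 20.5.

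Around the members, 100 other genes of the pathway and of the ATF4 response were listed, and 91 passed the filter. Their median log2 fold change was 0.11, against -0.05 over all genes tested. EdgeR called 0 of the 91 with or without the block. At an unadjusted p under 0.05, 7 were higher and 2 lower without the block (background 3.56% and 3.00%), and 23 and 5 with it (8.01% and 12.8%). Without mouse 2, edgeR with the block called 5 of the 89 then tested as higher and 5 as lower (1.85% and 2.93% of all genes).

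Purine and thymidylate synthesis genes, which use the carbon units made by the members, had the highest median of the 5 pathway lists. All 18 were tested, with a median log2 fold change of 0.49, and 12 were higher in 3 of 3 mice (20.6% of all genes). At an unadjusted p under 0.05, 6 were higher and 0 lower without the block (3.56% and 3.00% of all genes), and 11 and 0 with it (8.01% and 12.8%). EdgeR called none of the 18 in either fit. Paics, which catalyses consecutive steps of purine ring synthesis, had 457, 456.7 and 487 CPM in CD61High of mice 1, 2 and 3, against 274, 311 and 293 CPM in CD61Low. These groups were far apart for their spread, at a log2 fold change of 0.68 (SE 0.13, edgeR adjusted p = 0.652; 0.0720 with the block). Ppat, the first committed step of purine synthesis, was at 0.64 (SE 0.16), Adsl at 0.62 (SE 0.20) and the folate-using Gart at 0.54 (SE 0.18), with edgeR adjusted p of 0.0758, 0.0767 and 0.0849 with the block. Paics and Ppat share 8.67% and 6.15% of their exon sequence with each other's locus, and Gart shares 19.7% with Gm15964.

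Of the 14 tested genes for folate uptake and interconversion, 5 were higher and 2 lower in all 3 mice (20.6% and 24.7% of all genes), with a median of 0.08. Qdpr, a pterin reductase, averaged 74.1 ± 12.5 CPM in the CD61High libraries and 50.1 ± 12.5 CPM in the CD61Low libraries (SD, n = 3). With the block its log2 fold change was 0.58 (SE 0.14, edgeR adjusted p = 0.0919), and it was higher in CD61High in each mouse. Qdpr shares 18.6% of its exon sequence with Gm42413. The folate carrier Slc19a1 was at 0.44 (SE 0.15, edgeR adjusted p = 0.176) with the block, also higher in each mouse.

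Serine and glycine transport and cleavage genes showed no common side, with a median of 0.03 over 19 tested. In all 3 mice 5 were higher and 4 lower (20.6% and 24.7% of all genes). Sfxn1, which carries serine into mitochondria, was at 228 ± 36.6 CPM in CD61High and 174 ± 7.60 CPM in CD61Low (SD, n = 3), a log2 fold change of 0.39 (SE 0.17, edgeR adjusted p = 0.752). Its relative Sfxn2 was at 0.47 (SE 0.20), Sdsl, related to serine dehydratase, at 0.52 (SE 0.37) and Gcsh, a subunit of the glycine cleavage system, at 0.35 (SE 0.29). In the methionine cycle list the median was 0.15 over 13 tested. Ahcy, which breaks down S-adenosylhomocysteine, was at 20.7, 18.2 and 20.7 CPM in CD61High of mice 1, 2 and 3 and at 11.96, 11.1 and 12.3 CPM in CD61Low. The libraries of a group lay close together, and the log2 fold change was 0.75 (SE 0.19, edgeR adjusted p = 0.656; 0.0985 with the block). Cbs, the first step of transsulfuration, was low, at 1.21 ± 0.685 and 0.401 ± 0.282 CPM (SD, n = 3). Mat2a and Gss, for S-adenosylmethionine and glutathione synthesis, were at 0.23 (SE 0.14) and 0.25 (SE 0.15), and 11.3% and 18.6% of their exon sequence overlaps other genes.

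The ATF4 response list, which leaves out the members, had no common side. Its median was -0.06 over 27 tested, with 5 higher and 5 lower in all 3 mice (20.6% and 24.7% of all genes). At an unadjusted edgeR p under 0.05, 0 were higher and 1 lower without the block (3.56% and 3.00% of all genes). With the block 3 were higher and 4 lower (8.01% and 12.8%). The list's 4 genes with the smallest blocked p were all lower in CD61High: the pseudokinase Trib3 at a blocked log2 fold change of -1.36 (SE 0.17), the transcription factor Cebpb at -1.24 (SE 0.20), Sesn2, a leucine sensor, at -0.71 (SE 0.14) and Ppp1r15a, a phosphatase subunit that restores translation, at -0.62 (SE 0.13). Their edgeR adjusted p with the block were 0.0512, 0.0618, 0.0760 and 0.0767. Trib3 was at 56.3, 14.2 and 35.2 CPM in CD61High of mice 1, 2 and 3. In CD61Low it was at 113, 36.7 and 115 CPM, so it was lower in CD61High in each mouse. Atf4 itself and its target Asns, chosen after their values were seen, stood at log2 -0.32 (SE 0.52) and log2 0.02 (SE 0.42). Both were lower in CD61High of mouse 2 and higher in mice 1 and 3. Cebpb shares 20.7% of its exon sequence with Tmem189.

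**Figure D5:**
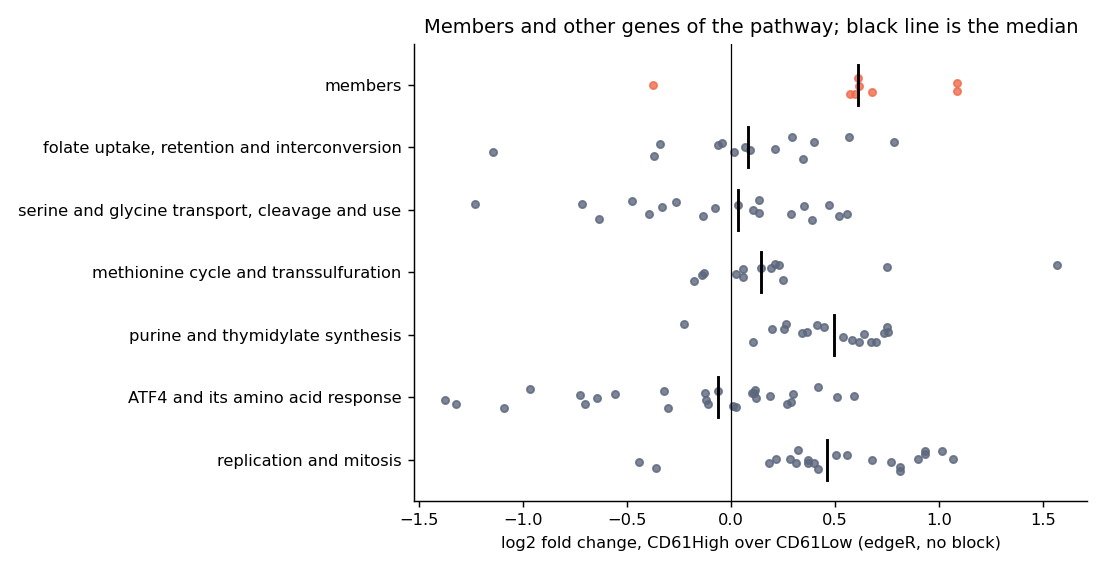
Log2 fold change of CD61High over CD61Low (edgeR, no block) for each tested gene of the members and 6 other lists; each point is a gene and black lines are medians. The medians are 0.61 for the members, 0.49 for purine and thymidylate synthesis and -0.06 for the ATF4 response.

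Replication and mitosis genes had a median log2 fold change of 0.46 over 22 tested without the block and 1.13 with it, where the 8 members had 0.61 in both fits. Of the 22, 8 were higher in all 3 mice, as were 7 of the 8 members and 20.6% of all genes tested. EdgeR called none of the 22 in either fit. With the block and without mouse 2 it called 10 of the 22 as higher, against 3 of the 8 members and 1.85% of all genes. The median difference of these genes was 1.18, -0.18 and 2.28 in mice 1, 2 and 3, and that of the 8 members was 0.67, 0.45 and 0.86. Mcm6, a subunit of the replicative helicase, had 835, 903 and 972 CPM in CD61High of mice 1, 2 and 3 and 323, 634 and 338 CPM in CD61Low. Its CD61Low library of mouse 2 was well above the other CD61Low libraries. Among the members, CD61Low of mouse 2 was also the highest CD61Low library for Mthfd2, Mthfd1 and Psph, it was the lowest for Phgdh, Shmt1 and Shmt2, and it lay between the others for Psat1 and Mthfd1l. The log2 fold change of Mcm6 was 1.07 (SE 0.30, edgeR adjusted p = 0.676), and 1.14 (SE 0.22, edgeR adjusted p = 0.0758) with the block. Mcm3, Mcm2 and Mcm4 of the same complex were at log2 0.93 (SE 0.33), 0.90 (SE 0.45) and 0.77 (SE 0.40), with edgeR adjusted p of 0.716, 0.771 and 0.791. With the block they were at 1.03 (SE 0.23), 1.07 (SE 0.29) and 0.90 (SE 0.26), with edgeR adjusted p of 0.0867, 0.131 and 0.134. Whether the members and this list differ in their response was not tested.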

How the data were processed

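The authors deposited raw read counts, 1 table per library and 1 for the series. STAR 2.7, edgeR and MultiQC are named in the submitters' processing notes. No source used here names a genome build or annotation. All 55450 identifiers in each library table are those of GENCODE M21 on GRCm38, which supplied symbols, coordinates and exon lengths. The unstranded counts were used: strands were equally covered (49.9% to 50.0% on the first). Unmapped, multimapping, ambiguous and gene-free reads (4.36% to 10.9%, 10.0% to 15.6%, 3.55% to 4.37% and 2.88% to 4.21% of a library) stayed out of library sizes and tests. The fit covered the 15610 genes that passed filterByExpr by group: edgeR 4.0.16 in R 4.3.3, TMM factors, robust quasi-likelihood F-test, two-sided, Benjamini-Hochberg adjustment over all of them, called at an adjusted p under 0.05. Standard errors were derived from the F statistic. CPM values are TMM-adjusted, and the difference within a mouse is in log2 CPM with a prior count of 2. The method was tested on simulated data.

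The main model had no block, since no source used here describes the authors' model. The titles pair the libraries by mouse number, so a fit blocked on mouse stands beside it. Deviations from the group means correlated at 0.24, 0.81 and 0.76 within mice 1, 2 and 3, against -0.82 to 0.37 between mice. CD61High of mouse 1 correlated more with CD61Low of mouse 3 (0.37) than with its own (0.24). Deviations sum to 0 within a group, so the values between mice are no independent baseline. No 2 libraries agreed within sampling noise (lowest chi-square per degree of freedom 41.2). DESeq2 1.42.0, limma voom 3.58.1, other scalings, no filter and left-out libraries were alternatives. Named beside the members are Itgb3 and the 4 genes with the smallest blocked p in each pathway list. Other genes outside this rule are marked in the text. Some genes that the rule picks are not reported here. The members and lists were chosen with earlier results of these data known. All 219 listed symbols matched the annotation. Promoter windows are RefSeq's on GRCm38.p6.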

Additional observations from a re-analysis of the deposited data

How the results depend on the processing

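With 3 mice a group, and no statement on separate cultures or sorts beyond the mouse number in the titles, p-values measure the spread between these libraries. Without a block edgeR called 0 genes, 0 members and 0 of the other pathway genes. Unadjusted p were under 0.05 for 1023 genes. With the replicate block, which rests on the mouse number in the titles, it called 40 genes, 0 members and 0 pathway genes, so that the pairing changed no member's call in this fit. With the block and relative log expression factors it called 88 genes, 1 member and 2 pathway genes. DESeq2 called 232, 3 and 3 without the block and 1527, 6 and 17 with it (Phgdh, Shmt2 and Mthfd1l were called only with it), and limma voom with the block called 333, 2 and 4. Leaving out single libraries or mice gave 0 to 133 genes, 0 to 1 members and 0 to 2 pathway genes without the block, and leaving out mice with the block gave 0 to 742, 0 to 3 and 0 to 10, on 1 residual degree of freedom. The highest counts were each without mouse 2, whose libraries hold the most neutrophil RNA, and without mouse 3 the block called 7 genes. The cause of these shifts was not tested.

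The 7 members other than Mthfd2 that were tested kept their direction in all 154 of their values under 22 alternatives, of which 16 were called. These fits reuse the same libraries. Psat1 ranged from 0.99 to 1.22 and Phgdh from 0.39 (without CD61Low of mouse 2) to 0.70. Mthfd2 was above 0 in 9 of 22 alternatives. It was at 0.37 with the block in edgeR and in DESeq2, 0.0053 in limma voom with the block, 0.34 with the block and relative log expression factors and 0.46 with the block and library sizes alone. Leaving out libraries moved it from -0.91 (without CD61High of mouse 2) to 1.57 (without CD61Low of mouse 2), with 0.48 and 1.09 for the block without mouse 1 and without mouse 2 and 1.03 without mouse 2 and without the block.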
